A study of Mus musculus with 10 samples.

Results

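A set of 10 genes of the actin cytoskeleton, the intermediate filaments and the galectin family was followed through kidney injury and recovery in single-cell RNA counts from mouse kidney cortex. The genes were Tmsb10, Tmsb4x, Vim, Actb, Actg1, Tpm1, Tpm4, Tagln2, Lgals1 and Lgals3. They were chosen by name, with earlier results of these data known. The rows of these 10 gene symbols, of 28808 symbols in the 10 tables, were read in each library. The mice were 4 weeks old, and Drop-seq, which captures the RNA of each cell on a barcoded bead, was run on normal kidneys (1 library, here called the control) and on injured kidneys. Days 1, 2 and 4 after the injury have 1 library apiece, and days 7, 11 and 14 have 2 apiece. The series title speaks of acute kidney injury, and the labels do not say what kind of injury, strain, sex or genotype the mice had, or whether the libraries of a day came from separate animals.

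Actin monomers and filaments are in constant exchange in epithelial cells. The beta-thymosins encoded by Tmsb4x and Tmsb10 bind actin monomers and hold them in reserve, Actb and Actg1 encode the cytoplasmic beta- and gamma-actin, Tpm1 and Tpm4 encode tropomyosins that lie along the filaments, and Tagln2 encodes transgelin 2, which binds and bundles them. Vimentin (Vim) forms the intermediate filaments of mesenchymal cells, blood cells and endothelium, while mature kidney tubules are built on keratins, and tubules in repair are a textbook site of vimentin. Galectins are lectins that bind beta-galactosides, and the genes measured encode galectin 1 (Lgals1) and galectin 3 (Lgals3), the latter known in collecting duct cells and in macrophages. Since immune and stromal cells use many of these genes at high levels, the counts were read separately in barcodes assigned to tubular, immune and stromal cells by counts of marker genes that include no member.

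Promoter sequences are shown for the members in which a searched motif was found. RefSeq windows on GRCm38.p6, the same assembly as mm10, matched 8 of the 10 members and not Actb and Lgals1, and the 250 bases before each start were searched on both strands. Overlap between motifs was not considered. Starts are those of RefSeq, and the sites shown for Vim, Tpm1 and Tagln2 lie within the gene spans given further on, which begin earlier. The motifs were the CArG box bound by serum response factor, a regulator of actin genes, the TATA box TATAAA, the motif CATTCC, which is bound by TEAD factors, and the AP-1 motif TGAGTCA or TGACTCA. Of 32851 windows, 1.467% held a CArG box, 12.37% TATAAA, 12.64% CATTCC and 4.463% an AP-1 motif. The sequences are written 5′ to 3′ on the gene's strand, with the motif in capitals (GGAATG is CATTCC on the other strand).
Actg1, CArG box 90 bases before the start, chr11:120348551-120348610, minus strand: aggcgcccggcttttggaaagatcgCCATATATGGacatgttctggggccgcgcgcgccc
Vim, TATAAA 32 bases before the start, chr2:13574254-13574309, plus strand: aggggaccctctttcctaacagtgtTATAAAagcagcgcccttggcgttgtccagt
Tpm1, CATTCC 56 bases before the start, chr9:67049239-67049294, minus strand: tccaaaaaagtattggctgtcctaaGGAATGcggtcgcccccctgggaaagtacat
Tagln2, CATTCC 118 bases before the start, chr1:172500103-172500158, plus strand: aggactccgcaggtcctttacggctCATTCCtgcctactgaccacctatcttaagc
Tagln2, CATTCC 80 bases before the start, chr1:172500141-172500196, plus strand: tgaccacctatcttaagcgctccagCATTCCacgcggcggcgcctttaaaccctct
No AP-1 motif was found in the members' windows, which says only that these letters are not in them. A match describes the sequence and is not evidence of binding, and no factor's binding was measured here.

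The tables held 64803 barcodes, with 7091848 to 31632205 counts of unique molecular identifiers (UMIs, each standing for 1 captured molecule) per library, and 52797 barcodes passed the filters. Marker counts put 40610 of these in the tubular class, 4960 in the immune class, 557 in the stromal class, 1898 in the endothelial class and 669 in the podocyte class, and 4103 in none. A library held 1562 to 6416 tubular, 63 to 1914 immune and 15 to 108 stromal barcodes, and the stromal class of day 11 replicate 2, with its 15 barcodes, is the thinnest. Of genes kept out of the gates, the held-out tubular list, 5 genes of the proximal tubule, summed to 54911 counts per 1e6 (CPM) in the tubular sum of the control and to 3027 and 4879 CPM on day 7. The share of mitochondrial UMIs in tubular barcodes also moved with the day, from 24.2% in the control to 4.55% and 5.90% on day 7, and the proximal share of tubular barcodes went from 67.75% to 26.1% and 29.1%, while the collecting duct share went from 9.35% to 35.7% and 34.5%. The share with no segment called went from 3.02% to 23.5% and 19.0%, so the proximal barcodes of day 7 may not hold all proximal cells. The part of these shares in the results was not tested, other than by the values within a segment given further on. Levels below are UMIs of a gene summed over the barcodes of a class in a library, as CPM of totals scaled by the trimmed mean of M-values (TMM) over all sums. In sums over barcodes, fewer cells that make an RNA and less of it per cell cannot be told apart.

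In tubular barcodes 8 of the 10 genes were higher on day 7 than in the control, and 8 were lower on day 11 than on day 7. Both comparisons use the 2 day 7 libraries, with opposite sign, so they are not independent of each other. The largest change was that of Vim, by 5.16 ± 0.45 on the log2 scale (± SE), followed by Tmsb10 (3.94 ± 0.30), Lgals1 (3.74 ± 0.38) and Tagln2 (2.93 ± 0.31). Tmsb4x changed by 2.33 ± 0.28, Tpm4 by 2.01 ± 0.22, Tpm1 by 1.87 ± 0.24 and Lgals3 by 1.48 ± 0.28. Actb (0.61 ± 0.24) and Actg1 (0.28 ± 0.21) did not pass the threshold. The median over the 10 genes was 2.17, beside 0.04 over all 16168 genes tested. Since the 10 genes were chosen with earlier results of these data known, this contrast describes the set and is no independent result. These tests are edgeR's quasi-likelihood test on the sums, with Benjamini-Hochberg adjustment over all genes, and adjusted p-values of the 8 genes ran from 1.1e-05 for Tmsb10 to 0.0025 for Lgals3. Of all genes tested, 34.3% passed, 16.5% higher and 17.9% lower. The spread came from the replicates of days 7, 11 and 14, and the lone control was assumed to vary as they did. p-values therefore measure the spread between libraries of a day, which may be technical.

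On day 11 the estimated difference from the control was smaller than on day 7 for 9 of the 10 genes and larger for Actg1 (0.71 ± 0.22 against 0.28 ± 0.21), and on day 14 the difference passed for 1 of the 10, Lgals1. How many of all genes had a smaller difference on day 11 than on day 7 was not counted. On day 11, 5 genes were higher than in the control, with 18.0% of all genes called, 8.99% higher and 9.01% lower: Vim (2.40 ± 0.43, adjusted p = 0.0068), Lgals1 (2.11 ± 0.35, adjusted p = 0.0048), Tmsb10 (1.70 ± 0.26, adjusted p = 0.0041), Tagln2 (1.37 ± 0.29, adjusted p = 0.012) and Actg1 (0.71 ± 0.22, adjusted p = 0.047), all in edgeR. Without day 11 replicate 2, 3 passed (5.06% of all genes). From day 7 to day 11 all 8 genes called fell, Vim by 2.76 and Tmsb10 by 2.23 on the log2 scale, with 44.0% of all genes called, 23.0% higher and 21.1% lower. On day 14 Lgals1 was 1.98 ± 0.34 above the control (edgeR, adjusted p = 0.012), with 7.89% of all genes called, 4.53% higher and 3.36% lower. In the same libraries 8 genes were below day 7, with 46.4% of all genes called, 24.4% higher and 22.1% lower. The count on day 14 against the control was 3 when either day 7 library was left out (15.2% and 15.0% of all genes). Between days 11 and 14, 3 genes fell, Tmsb10 by 2.37, Vim by 1.89 and Actg1 by 0.63 on the log2 scale, with 12.6% of all genes called, 6.28% higher and 6.31% lower. Without day 11 replicate 2, 1 did (3.54% of all genes).

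The size of the day 7 changes depends on the scaling. On plain library totals in place of TMM the median of all genes rose from 0.04 to 0.81 on day 7 against the control, the share of higher genes among those called went from 48.0% to 87.3%, and all 10 members passed, with 54.8% of all genes called. Actb, at 1.38, and Actg1, at 1.05, then lay above that median by less than any of the other 8. Against day 7 the same scaling moved the median of all genes from −0.07 to −0.84 on day 11 and from −0.02 to −0.87 on day 14, with 9 and 10 members lower beside 62.5% and 67.1% of all genes called, most of them lower, and the share of higher genes among those called from 52.1% to 15.8% and from 52.5% to 14.5%. It moved this share from 57.4% to 46.2% on day 14 against the control and from 49.9% to 37.4% on day 14 against day 11. Leaving mitochondrial and haemoglobin genes out moved it from 49.9% to 35.9% on day 11 against the control.

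**Figure D1:**
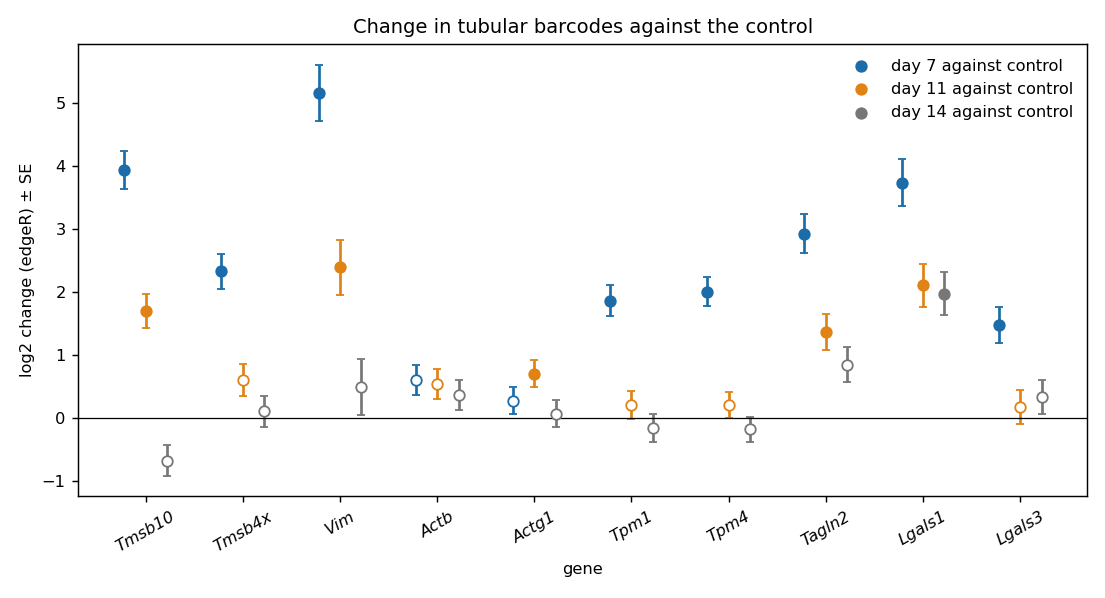
Log2 change of each gene in tubular barcodes on days 7, 11 and 14 against the control, as edgeR estimates with SE bars; filled points passed adjusted p under 0.05 and open points did not. The day 7 points of 8 genes are filled, from 1.48 for Lgals3 to 5.16 for Vim, and on day 14 the point of Lgals1 at 1.98 alone is filled.

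Tmsb10 (chr6:72957347-72958748, minus strand on GRCm38, as for all positions here) was near 45.8 CPM in control tubules (95% Poisson interval 42.9 to 48.9, which like all such intervals covers counting error only). It stood at 570.0, 562 and 616 CPM on days 1, 2 and 4, at 595 and 765 CPM on day 7, at 152 and 122 CPM on day 11 and at 25.1 and 27.4 CPM on day 14. The 5 libraries of days 1 to 7 lay together above all others, and both day 14 libraries lay below the control, a difference that did not pass the test (−0.67 ± 0.24, edgeR adjusted p = 0.11). How many of all genes set the libraries of days 1 to 7 apart was not counted, and the same holds for Vim and Tpm4 below. In immune barcodes Tmsb10 went from 1093 CPM in the control to 1267 and 1518 CPM on day 7, and in stromal barcodes from 870.0 to 730.1 and 1058 CPM. On day 7 tubular barcodes thus came within a log2 difference of −0.92 ± 0.16 of immune barcodes, against −5.47 ± 0.21 on day 14. Of the 50-base stretches in the last 300 bases of its transcripts, 39.34% also occur in Gm9844, a copy with no row in the tables, so reads of the copy could be counted as Tmsb10.

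Tmsb4x (chrX:167207093-167209315, minus strand) behaved alike in direction and less in size. Its tubular level was 321 CPM in the control (Poisson interval 313 to 329), 1009, 1076 and 806 CPM on days 1, 2 and 4, 1414 and 1725 CPM on day 7, 461 and 437 CPM on day 11 and 269 and 362 CPM on day 14. Day 7 was the highest, and the day 14 libraries lay on either side of the control. In immune barcodes the level ran from 4481 CPM in the control to 13541 CPM in day 7 replicate 2, and tubular barcodes were below immune barcodes in 10 of 10 libraries. Tubular barcodes held 4.26% to 16.4% of the immune level, with a median of 7.84%.

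Vimentin (Vim, chr2:13573927-13582826, plus strand) had the largest relative range of the 10 genes in tubular barcodes, with its highest library 58.1-fold above its lowest. The control held 2.30 CPM (Poisson interval 1.68 to 3.08). Levels of 50.9, 77.7 and 127 CPM on days 1, 2 and 4 were followed by 60.9 and 98.04 CPM on day 7, 9.33 and 13.1 CPM on day 11 and 2.19 and 3.80 CPM on day 14. The control and day 14 libraries are low, the 5 libraries of days 1 to 7 are high and do not overlap with the others, and day 11 lies between. Day 7 averaged 79.5 ± 26.3 CPM (SD, n = 2).

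Vim is known from immune and stromal cells, so its tubular level was set beside RNA that tubular cells should not make. In immune barcodes Vim ran from 161 CPM in the control to 1400.2 CPM on day 2, and in stromal barcodes from 429 CPM in day 14 replicate 1 to 914 CPM on day 1. The 7 immune genes kept out of the gates summed in tubular barcodes to 0.380% to 1.98% of their immune level, and all 7 had UMIs in each tubular sum. Tubular Vim was 1.43% of the immune level in the control, 6.12%, 5.55% and 10.1% on days 1, 2 and 4, and 7.83% and 8.11% in the day 7 libraries. It was then 1.64% and 1.75% on day 11, and on day 14 it was 0.702% and 0.769%. The held-out immune genes stood at 1.71% in the control and at 0.686% and 0.549% on day 14, near the share of Vim. They stood lower than Vim on the other days, at 1.85%, 1.05% and 0.695% on days 1, 2 and 4, 1.98% and 0.576% on day 7 and 0.422% and 0.380% on day 11. Against stromal barcodes the held-out stromal genes were 4.26% on day 1 beside 5.57% for Vim, and 1.98% and 0.513% on day 7 beside 8.05% and 11.1% for Vim. In the control, in day 11 replicate 2 and in both day 14 libraries they were above Vim (0.405% against 0.311%, 5.04% against 1.69%, 0.939% against 0.511% and 0.799% against 0.680%). Their part in the Vim counts was not tested.

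The 2 actin genes changed little next to the others. Actb (chr5:142903115-142906754, minus strand) was at 1486 CPM in control tubules, at 2281, 1973 and 2326 CPM on days 1, 2 and 4, at 1892 and 2501 CPM on day 7, at 1991 and 1981 CPM on day 11 and at 1751 and 1744 CPM on day 14. The control was the lowest of the 10 libraries, and the highest was 1.68-fold above it. The difference on day 7 had an adjusted p of 0.072 in edgeR and of 0.041 in limma-voom. In immune barcodes Actb went from 7264 CPM in the control to 12124 and 19547 CPM on day 7, and in stromal barcodes it was 8925 CPM in the control and 3559 and 6539 CPM on day 7.

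Actg1 (chr11:120345690-120348542, minus strand) followed another course. Its tubular level was 625 CPM in the control, 926, 704 and 673 CPM on days 1, 2 and 4, 722 and 752 CPM on day 7, 844 and 1037 CPM on day 11 and 602 and 599.7 CPM on day 14. The highest library was 1 of day 11 and the lowest was 1 of day 14. Across the 10 tubular sums the correlation of log2 CPM with the mean of the other members was 0.28 for Actg1 and 0.82 to 0.97 for the other 9, as a description of sums that share depth and gating. Levels of the 2 actins are uncertain, since 44.48% of the 50-base stretches at the ends of Actg1 transcripts and 12.37% of those of Actb recur in each other or in other genes, most of them pseudogenes, and overlapping small RNA genes Gm23419 and Mir6935 lie on the strand of Actg1.

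Tropomyosin genes Tpm1 and Tpm4 rose to day 7 by similar amounts in the sums over all tubular barcodes, from different levels in the other classes. In the thick limb segment they were less alike, at 2.09 ± 0.26 for Tpm1 and 1.34 ± 0.24 for Tpm4. In the proximal segment Tpm4 rose more, as given further on. Tpm1 (chr9:67022590-67049406, minus strand) was at 134 CPM in the control (Poisson interval 129 to 139.6), 266, 165 and 286 CPM on days 1, 2 and 4, 516 and 437 CPM on day 7, 159 and 127 CPM on day 11 and 109 and 111 CPM on day 14. Only day 7 stood well apart, with the single libraries of days 1 to 4 between it and the rest. Stromal barcodes, which include smooth muscle and mural cells, held 3312 CPM in the control and 1421 and 1989.6 CPM on day 7, so that the day 7 mean was 0.515 of the control. Immune barcodes held 45.9 CPM in the control (6 UMIs) and 169 and 120.5 CPM on day 7, below the tubular level in 10 of 10 libraries.

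Tpm4 (chr8:72134975-72153142, plus strand) went from 33.7 CPM (Poisson interval 31.2 to 36.4) in control tubules to 131, 96.7 and 126 CPM on days 1, 2 and 4, 123 and 139.9 CPM on day 7, 38.8 and 32.7 CPM on day 11 and 26.9 and 27.5 CPM on day 14. The libraries of days 1 to 7 do not overlap with the other 5, and how many of all genes did so was not counted. Its levels were 153 CPM in control immune barcodes and 236 and 261 CPM on day 7, and 274 CPM and 248 and 260.4 CPM in stromal barcodes. Gm26586 and Gm16091 overlap Tpm4 on the opposite strand, and whether the counting used strand is not given in the sources used here.

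Transgelin 2 (Tagln2, chr1:172500047-172507380, plus strand) had tubular levels above the immune level in 2 of 10 libraries. It stood at 36.4 CPM in the control (Poisson interval 33.7 to 39.1), 228, 213 and 372 CPM on days 1, 2 and 4, 212 and 322 CPM on day 7, 85.1 and 87.4 CPM on day 11 and 54.3 and 65.1 CPM on day 14. All 9 injured libraries were above the control. On day 7 immune barcodes held 224 and 309 CPM, and the tubular value differed from them by 0.11 ± 0.18 on the log2 scale, which did not pass edgeR's test (adjusted p = 0.64). On day 14, with 208 and 225 CPM in immune barcodes, the difference was −2.08 ± 0.30.

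The galectin genes differed in their time course and in the cells that held them. Lgals1 (chr15:78926725-78930465, plus strand) was at 40.7 CPM in control tubules (Poisson interval 37.9 to 43.6), 875, 797 and 1110.4 CPM on days 1, 2 and 4, 390.4 and 659.8 CPM on day 7, 176 and 147 CPM on day 11 and 129.9 and 162 CPM on day 14. The 3 single libraries of days 1 to 4 were the highest, day 7 came next, and all 4 libraries of days 11 and 14 lay above the control. The tubular level was above the endothelial level in 10 of 10 libraries, with a median of 542% of it, and below the immune level in 10 of 10, with a median of 28.5%.

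Lgals3 (chr14:47367751-47386160, plus strand) was at 193 CPM in control tubules (Poisson interval 187 to 199), 497, 361 and 646 CPM on days 1, 2 and 4, 418 and 623 CPM on day 7, 200.1 and 202 CPM on day 11 and 199.6 and 245 CPM on day 14. The 4 libraries of days 11 and 14 lay at or a little above the control. In immune barcodes the course was larger. There Lgals3 had 61.2 CPM in the control (8 UMIs, Poisson interval 26.4 to 121), 602, 1965 and 2303 CPM on days 1, 2 and 4, 1178 and 1647 CPM on day 7, 784 and 1399 CPM on day 11 and 549 and 476 CPM on day 14. Stromal barcodes held 0 to 15 UMIs of Lgals3 per library.

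On the single days 1, 2 and 4, which have no replicate and no test, 7, 6 and 8 of the 10 genes were at least 2-fold above the control in tubular barcodes. Among all genes with any count under 3 set to 3, 21.0%, 15.7% and 15.1% were. Tmsb10 was 12.4-, 12.3- and 13.4-fold, Lgals1 21.5-, 19.6- and 27.3-fold and Tagln2 6.27-, 5.86- and 10.2-fold the control on the 3 days. Vim was 22.1-, 33.8- and 55.4-fold the control, from the low level described above. Actb, at 1.33- to 1.57-fold, and Actg1, at 1.08- to 1.48-fold, stayed under 2-fold on each.

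**Figure D2:**
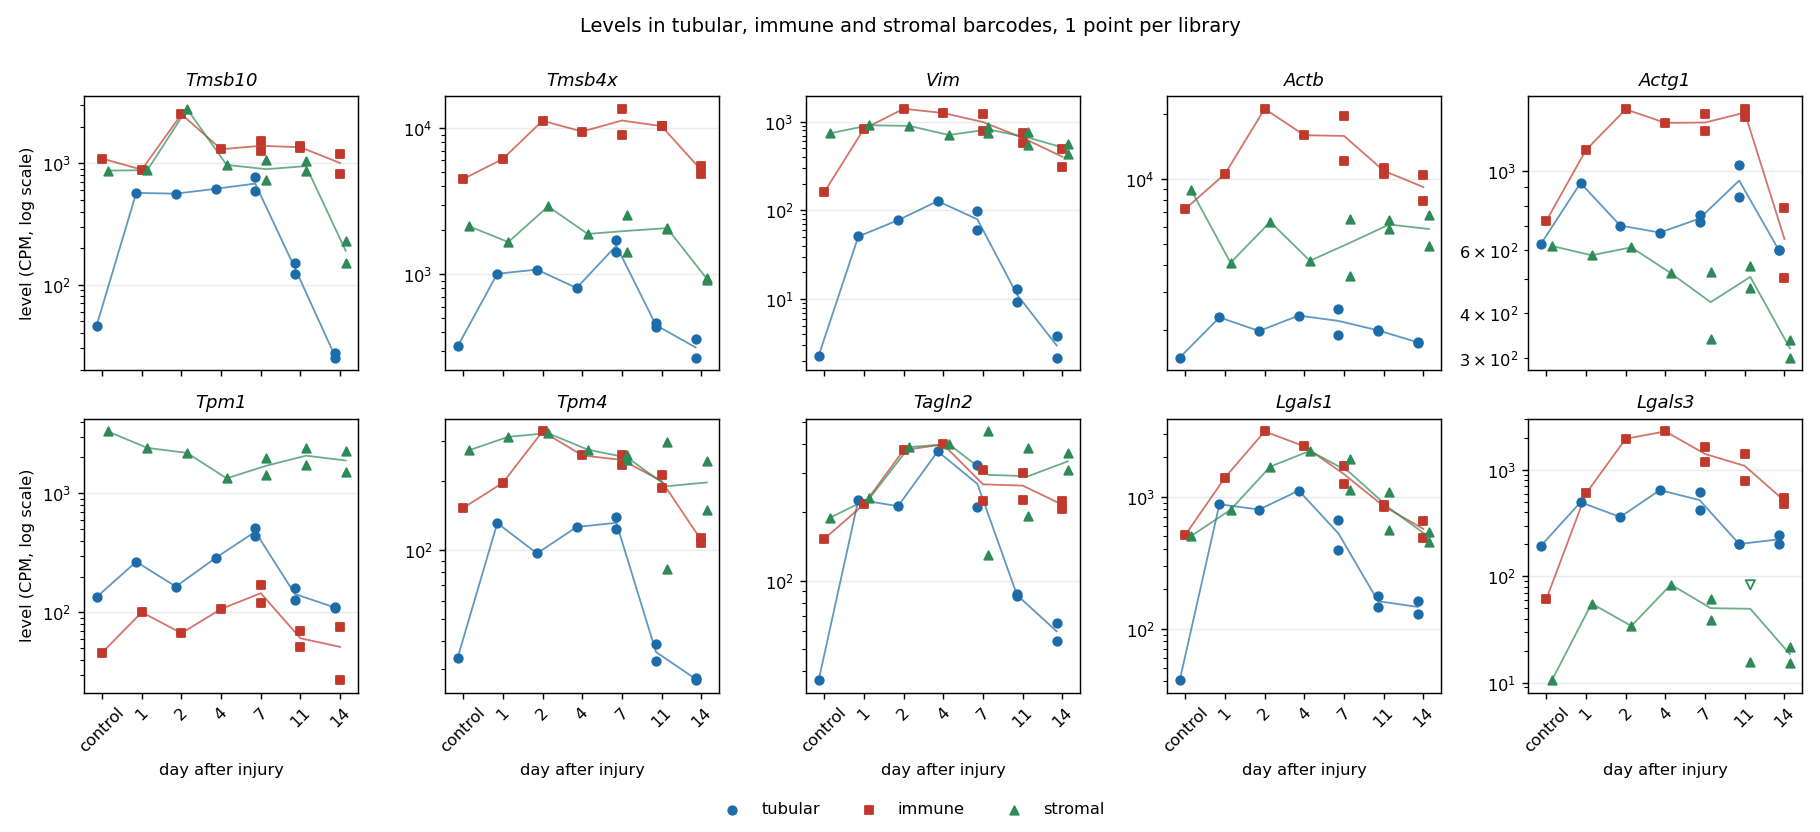
CPM of each gene on a log scale by day after injury in tubular, immune and stromal barcodes, with 1 point per library and lines through the group means; the open triangle is a stromal sum with 0 UMIs of Lgals3, plotted at the level of 3 counts. Tubular Tmsb10 lies below the immune level on day 7, at 595 against 1267 CPM in replicate 1 and 765 against 1518 CPM in replicate 2, and falls to 25.1 and 27.4 CPM on day 14, while Tpm1 is highest in stromal and Lgals3 lowest in stromal barcodes.

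Between classes, tubular barcodes were mostly lower than immune barcodes. Within each library tubular and immune sums were compared with the library as a block. Against immune barcodes 9 genes passed on day 7 (50.3% of all genes, 26.3% higher and 24.0% lower), 10 on day 11 (24.5%, 13.6% higher and 10.9% lower) and 8 on day 14 (24.2%, 13.8% higher and 10.4% lower) in edgeR, and 9, 9 and 8 in limma-voom (42.5%, 44.7% and 51.3% of all genes). All edgeR calls were lower in tubular barcodes except Tpm1, which was higher by 1.85 ± 0.19 on day 7 and by 1.12 ± 0.36 on day 11. A stricter gate left 12 and 3 immune barcodes in the day 11 libraries. Sums under 10 barcodes were not used, so day 11 then rested on the library with 12. The median of all genes was 6.43 there. The log2 difference of Vim was −3.53 ± 0.19 on day 7 and −7.29 ± 0.30 on day 14, and that of Tmsb4x −2.70 ± 0.14 and −4.27 ± 0.15. Actb differed by −2.71 ± 0.13 and −2.60 ± 0.13 on the same days. With TMM the median of all genes in these contrasts was 0.06 for day 7, 0.66 for day 11 and 1.09 for day 14. On plain library totals the share of higher genes among those called went from 52.3% to 69.4% on day 7 and from 56.98% to 39.8% on day 14 (63.9% and 41.0% with DESeq2).

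Against stromal barcodes 6 genes passed on day 7 (11.1% of all genes, 5.54% higher and 5.54% lower), 10 on day 11 (13.9%, 9.54% higher and 4.33% lower) and 9 on day 14 (11.7%, 8.3% higher and 3.42% lower) in edgeR, and 5, 9 and 9 in limma-voom (26.2%, 41.0% and 45.5% of all genes). Tpm1 was lower in tubular barcodes by 1.91 to 4.14, and Vim by 3.45 to 7.45. Lgals3 was higher by 3.32 ± 0.45 on day 7, 4.16 ± 0.78 on day 11 and 3.55 ± 0.80 on day 14, against few stromal UMIs. Actg1 was above the stromal level in 10 of 10 libraries and passed on day 11 (0.95 ± 0.35), where plain library totals turned the sign (−0.09). The count of 6 on day 7 fell to 3 without day 7 replicate 2 (2.02% of all genes), and that of 9 on day 14 to 3 without day 14 replicate 1 (4.50%). The share of higher genes among those called was 50%, 68.8% and 70.8% on days 7, 11 and 14, and 33.4%, 42.5% and 37.4% with DESeq2 (37.5% and 34.4% on days 11 and 14 on plain totals).

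The change from control to day 7 itself differed between classes. Its log2 size in tubular minus immune barcodes passed for 7 genes in both edgeR and limma-voom (5.15% of all genes in edgeR, 2.3% higher and 2.85% lower, and 11.7% in limma-voom). Tmsb10 rose more in tubular barcodes by 3.87 ± 0.31 (limma-voom adjusted p = 0.0014), Vim by 2.80 ± 0.49 (0.016), Lgals1 by 2.46 ± 0.32 (0.015), Tagln2 by 2.40 ± 0.49 (0.014), Tpm4 by 1.60 ± 0.49 (0.046) and Tmsb4x by 1.31 ± 0.23 (0.020), with edgeR estimates and limma-voom adjusted p. Lgals3 went the other way, by −2.77 ± 0.45 (limma-voom adjusted p = 0.021), resting on 8 control UMIs in immune barcodes. From day 7 to day 11, in a comparison that shares the day 7 libraries, 7 genes passed (5.67% of all genes in edgeR, 3.38% higher and 2.29% lower, and 13.5% in limma-voom), with estimates of −2.55 for Tmsb10 and −2.52 for Vim, and below 0 for all 7. A stricter gate left 12 and 3 immune barcodes in the day 11 libraries, and only the library with 12 was used. The median of all genes was then 5.48, the estimate of Vim −2.44, and Lgals1 changed sign (0.68). edgeR estimated unlimited prior degrees of freedom here, so that its test takes the spread between libraries as known, and limma-voom's p-values, from 6.68 prior degrees of freedom, are given. On simulated data for the day 7 difference edgeR called 0% and limma-voom 0.564% of unchanged genes. The simulation gave all genes the same dispersion, so it cannot check whether the spread may be taken as known. The median of all genes in the day 7 difference was −0.99 with TMM and −0.18 on plain totals, and the share of higher genes among those called 44.7% and 87.1% (85.9% with DESeq2). For the change from day 7 to day 11 these medians were 0.50 and 0.01, and the shares 59.7% and 24.0% (28.9% with DESeq2). The count of members called was the same in all 3 scalings. For day 7 the number called over all genes was lower with DESeq2, as given below, and for plain totals it is not given.

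In tubular minus stromal barcodes 7 genes passed on day 7 against the control (2.02% of all genes in edgeR, 1.6% higher and 0.421% lower), all higher, and 6 in limma-voom (3.7%). Both tools estimated unlimited prior degrees of freedom in the fit of tubular and stromal sums, so limma-voom is no check on that here. The edgeR differences were 4.95 ± 0.59 for Vim, 3.86 ± 0.55 for Tmsb10, 2.79 ± 0.54 for Tpm1, 2.44 ± 0.53 for Tmsb4x, 2.29 ± 0.58 for Tagln2, 2.10 ± 0.55 for Tpm4 and 2.09 ± 0.55 for Lgals1. Tagln2 and Tpm4 missed the threshold in limma-voom, with adjusted p of 0.065 and 0.10, while Actb passed there. From day 7 to day 11, 4 passed in both tools (0.546% of all genes in edgeR, 0.263% higher and 0.283% lower, and 2.87% in limma-voom): Vim, Tmsb10, Tpm1 and Tmsb4x, each falling more in tubular barcodes. That count was 1 to 4 with 1 library left out, the lowest without day 7 replicate 2 (0.19% of all genes). On plain totals 8 passed (1.46% of all genes), and the share of higher genes among those called went from 48.2% to 11.7% (28.6% with DESeq2).

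Counts of the held-out immune and stromal genes in tubular barcodes moved with the day, and whether they are RNA of other cells was not tested. The held-out immune list summed to 62.2 CPM in the control, 117, 106 and 155 CPM on days 1, 2 and 4, 460.4 and 169.7 CPM on day 7 and 45.4 and 46.7 CPM on day 14. The 6 held-out stromal genes summed to 13.1 CPM in the control, 264 and 123 CPM on day 7 and 19.0 and 20.1 CPM on day 14, and all 6 had UMIs in each tubular sum. As shares of the level in their own class these lists had medians of 0.691% (immune) and 0.869% (stromal). The members' medians were higher, at 7.84% of the immune level for Tmsb4x, 16.8% for Tmsb10, 17.2% for Actb and 27.4% for Tpm4. Those of Lgals1, Lgals3, Tagln2, Actg1 and Tpm1 were 28.5%, 35.9%, 47.5%, 64.4% and 280%. Tpm1, which was highest in stromal barcodes, held 4.06% to 36.3% of the stromal level, with a median of 8.35%. The held-out stromal list reached 5.04% of that level. Vim, at 3.65% of the immune and 3.64% of the stromal level, came nearest to the held-out lists.

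Proximal tubule barcodes, called from 11 transporter and receptor genes, showed the change in all 10 genes. On day 7 against the control Tmsb10 rose by 6.66 ± 0.45, Vim by 6.55 ± 0.54, Lgals3 by 4.96 ± 0.40, Tmsb4x by 4.25 ± 0.29, Lgals1 by 4.14 ± 0.42, Tagln2 by 3.26 ± 0.38, Tpm4 by 2.89 ± 0.28, Tpm1 by 1.87 ± 0.25, Actb by 0.94 ± 0.24 and Actg1 by 0.86 ± 0.23, all with edgeR adjusted p of 0.014 or less (38.1% of all genes called, 18.6% higher). Tmsb10 in proximal barcodes was 9.85 CPM in the control, 569.6, 372 and 689 CPM on days 1, 2 and 4, 710.4 and 1126 CPM on day 7, 76.9 and 63.5 CPM on day 11 and 6.37 and 9.67 CPM on day 14, so the day 7 mean was 93.2-fold the control. The libraries of days 1 to 7 stood far above the rest. Day 14 replicate 1 lay under the control, and replicate 2 was level with it (Poisson interval 7.80 to 11.9 against 7.92 to 12.1). On day 14 against the control 1 gene passed in proximal barcodes, Lgals1, higher by 1.46 ± 0.37 (edgeR adjusted p = 0.034, 8.32% of all genes called), with 176 and 221 CPM against 76.3 CPM. Actb, Actg1, Tagln2 and Lgals3 also lay above the lone control in both day 14 libraries and did not pass. How many of all genes did so was not counted. Vim was level with the control in day 14 replicate 1 (2.22 against 2.19 CPM), at 4.52 CPM in replicate 2, and did not pass.

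Lgals3 and Tmsb4x differed widely between segments. Proximal Lgals3 went from 9.96 CPM in the control (Poisson interval 8.02 to 12.2) over 506, 177 and 499 CPM on days 1, 2 and 4 to 219 and 352 CPM on day 7 and back to 13.8 and 18.4 CPM on day 14. In collecting duct barcodes, which make galectin 3 without injury, it was 1004 CPM in the control, 611, 749 and 1108 CPM on days 1, 2 and 4, 578 and 904 CPM on day 7, 961 and 1153 CPM on day 11 and 1366 and 1625 CPM on day 14. There day 7 did not pass against the control (−0.37 ± 0.25, edgeR adjusted p = 0.37), and day 14 was above day 7 by 1.03 ± 0.21 (adjusted p = 0.00081), the opposite sign to proximal barcodes, where it fell by 4.19. Thick limb barcodes stayed above the control on day 14 by 1.51 ± 0.28 (edgeR adjusted p = 0.011, 1.61% of all genes called), at 309 and 327 against 121 CPM.

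Tmsb4x was at 35.9 CPM in proximal, 82.2 CPM in thick limb and 1904 CPM in collecting duct barcodes of the control. On day 7 it was at 568 and 698, 735 and 814, and 2616 and 3567 CPM in these segments, and on day 14 at 32.7 and 38.7, 69.9 and 90.8, and 2351 and 2951 CPM. The collecting duct was thus the high segment at every time, and its share of the tubular barcodes was largest on day 7. On day 14 proximal barcodes were below collecting duct barcodes by 6.22 ± 0.11 for Tmsb4x and 6.55 ± 0.12 for Lgals3 and above them by 2.41 ± 0.24 for Lgals1 (edgeR, 50.6% of all genes called).

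In thick limb barcodes 8 genes were higher on day 7 (21.6% of all genes called), from Tpm4 (1.34 ± 0.24) to Lgals1 (4.75 ± 0.34), and the actins did not pass. In collecting duct barcodes 6 were higher (14.4%): Vim, Lgals1 (2.97 ± 0.34), Tmsb10 (2.60 ± 0.27), Tagln2 (1.76 ± 0.27), Tpm4 (0.86 ± 0.27) and Tmsb4x (0.77 ± 0.24). Vim there rests on 2 UMIs in the control (0.704 CPM) beside 24.8 and 15.9 CPM on day 7. The change from control to day 7 was larger in proximal than in collecting duct barcodes for 8 genes (22.2% of all genes called in either direction), and the same 8 passed in limma-voom (24.6%). The difference was 5.31 ± 0.20 for Lgals3, 4.03 ± 0.27 for Tmsb10, 3.48 ± 0.17 for Tmsb4x, 2.04 ± 0.24 for Tpm4, 1.47 ± 0.25 for Tagln2, 1.18 ± 0.22 for Tpm1, 1.14 ± 0.19 for Actg1 and 0.76 ± 0.15 for Actb, on the log2 scale. For Lgals1 it was 1.16 ± 0.45 (edgeR adjusted p = 0.066) and for Vim 1.83 ± 1.72 (adjusted p = 0.52).

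In these proximal sums the held-out immune genes went from 16.4 CPM in the control to 435 and 121 CPM on day 7, and the held-out stromal genes from 15.5 to 627 and 239 CPM. All 7 held-out immune genes had UMIs in every proximal sum, and the part of RNA from other cells in the proximal values was not tested.

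**Figure D3:**
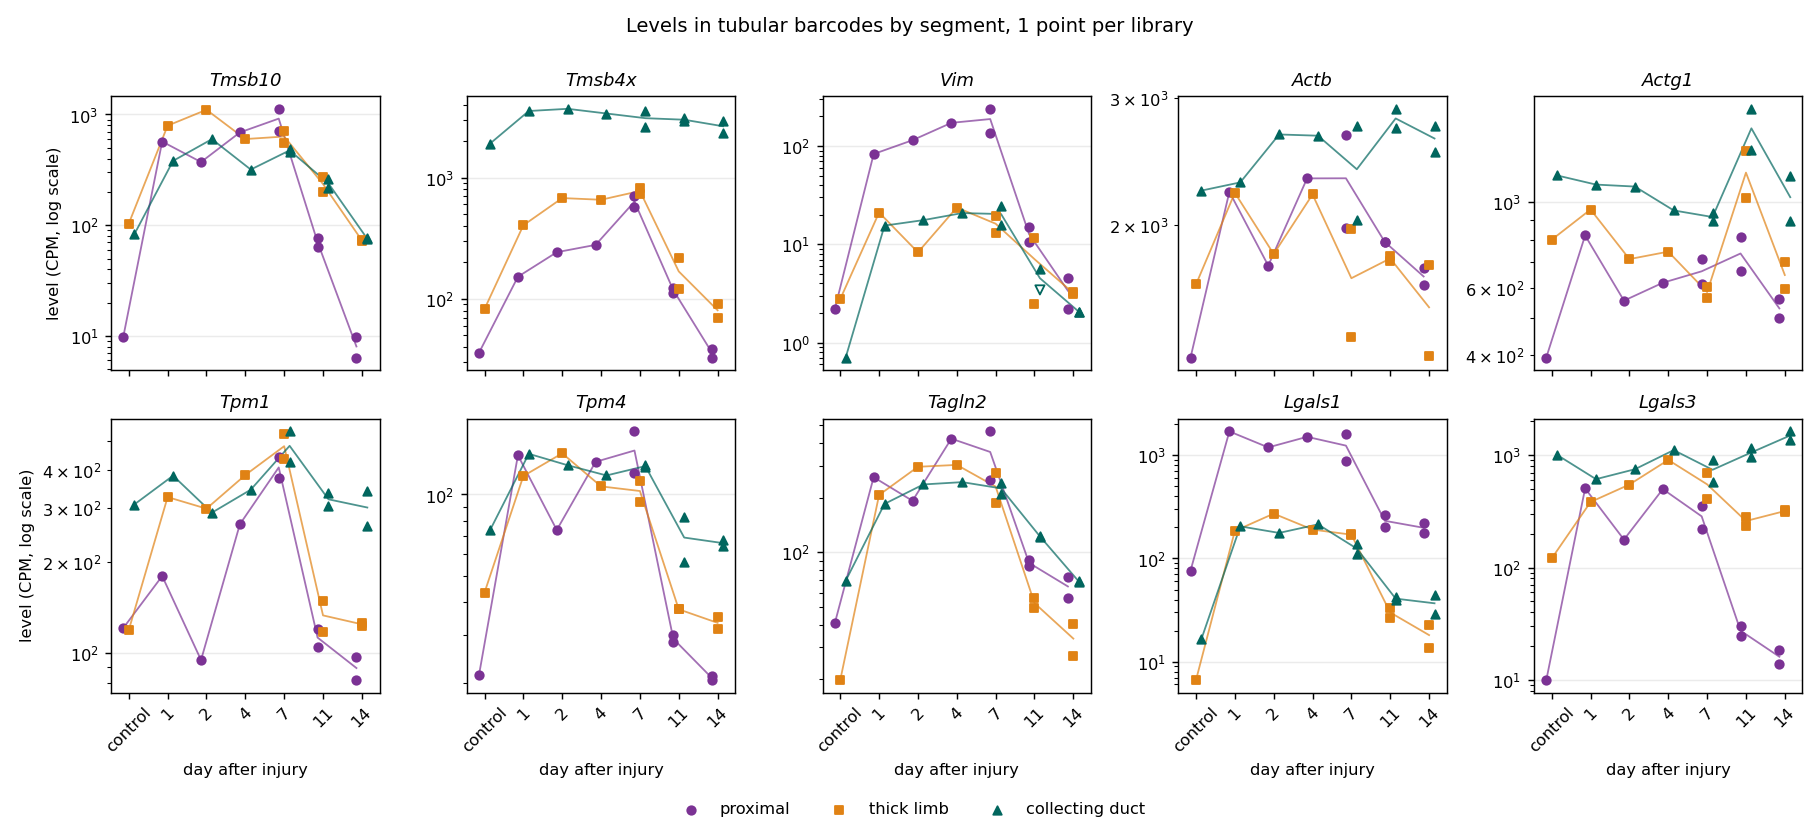
CPM of each gene on a log scale by day after injury in proximal, thick limb and collecting duct barcodes, with 1 point per library and lines through the group means; the open triangle is a sum with 0 UMIs of Vim, plotted at the level of 3 counts. Collecting duct Lgals3 is at 1004 CPM in the control and 1625 CPM in day 14 replicate 2, while proximal Lgals3 goes from 9.96 CPM to 352 CPM in day 7 replicate 2 and back.

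Havcr1 encodes KIM-1, a membrane protein that proximal tubules make after injury, and it is no member of the gates. The 9 injured libraries held 27 to 2320 tubular barcodes with a Havcr1 UMI, which were compared with the tubular barcodes without one in the same library. In edgeR 5 genes passed (25.9% of all genes, 9.43% higher and 16.5% lower): Vim was higher in Havcr1-positive barcodes by 2.72 ± 0.32 (adjusted p = 1.1e-05), Lgals1 by 1.67 ± 0.25 (0.00011), Tagln2 by 0.52 ± 0.17 (adjusted p = 0.027) and Tpm4 by 0.48 ± 0.13 (adjusted p = 0.010), and Tmsb4x was lower by 1.71 ± 0.26 (adjusted p = 0.00012). limma-voom called these and Tmsb10 (29.7% of all genes). On days 1, 2, 4 and 7 alone, a restriction added after seeing the data, edgeR called 7 (27.2%): the same 5 with Tmsb10 (0.80 ± 0.18, adjusted p = 0.015) and Actb (0.34 ± 0.09, adjusted p = 0.027), both higher. On plain totals the share of higher genes among those called went from 36.4% to 49.7%. Without day 7 replicate 1, edgeR called 3 (19.5% of all genes). Vim was at 74.3 against 23.8 CPM on day 1, 316 against 19.6 on day 2, 197 against 24.6 on day 4, and 137 against 23.8 and 253 against 19.4 CPM on day 7. It was higher in Havcr1-positive barcodes in 5 of 5 libraries of days 1 to 7 and in 6 of all 9, and those of days 11 and 14 hold 27 to 53 such barcodes and 0 or 1 UMI of Vim. Lgals1 was at 1337 against 339 CPM on day 1, 1611 against 372 CPM on day 4, and 772 against 204 and 1596 against 185 CPM on day 7, higher in 7 of 9 libraries.

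Tmsb4x, lower in Havcr1-positive tubular barcodes in 9 of 9 libraries, did not pass the test within the proximal segment. Proximal barcodes made up 56.2% of Havcr1-positive and 18.4% of Havcr1-negative tubular barcodes on day 1, and 52.4% and 60.7% against 14.2% and 18.0% on day 7. The gap was smaller in the other libraries: 78.5% against 62.0% on day 2, 67.4% against 54.1% on day 4, 89.2% against 74.3% and 96.3% against 80.1% on day 11, and 94.3% against 78.9% and 100% against 78.3% on day 14. Among proximal barcodes alone, a comparison added after seeing the data, Tmsb4x was at 139 against 201 CPM on day 1, 208 against 255 CPM on day 2, 317 against 177 CPM on day 4 and 531 against 533 and 780.1 against 329.6 CPM on day 7. It was at 178 against 110.3 and 65.0 against 123 CPM on day 11, and at 9.35 against 33.2 and 11.7 against 39.2 CPM on day 14, where each Havcr1-positive sum holds 3 UMIs of it. Havcr1-positive barcodes were thus higher in 3 of 9 libraries and lower in the other 6, and the values of day 7 replicate 1 are nearly equal. The fitted difference was 0.15 ± 0.19 (edgeR adjusted p = 0.66). Within proximal barcodes 7 genes were higher with a Havcr1 UMI (19.7% of all genes called): Vim by 2.25 ± 0.27, Lgals3 by 1.68 ± 0.23, Tmsb10 by 1.40 ± 0.25, Tpm4 by 1.18 ± 0.15, Lgals1 by 0.91 ± 0.18, Tagln2 by 0.71 ± 0.18 and Tpm1 by 0.71 ± 0.15. On days 1, 2, 4 and 7 alone, 9 were (23.9%), all but Tmsb4x, and each of the 9 was higher in 5 of 5 libraries. How many of all genes were higher in 5 of 5 libraries was not counted. In all tubular barcodes over all days Lgals3 had the opposite sign (−0.45 ± 0.24, edgeR adjusted p = 0.19) and did not pass. Havcr1-positive tubular barcodes were also deeper, with median UMI counts per library of 1638 to 4367 against 1441 to 2118 in Havcr1-negative ones, and the part of depth in the result was not tested.

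**Figure D4:**
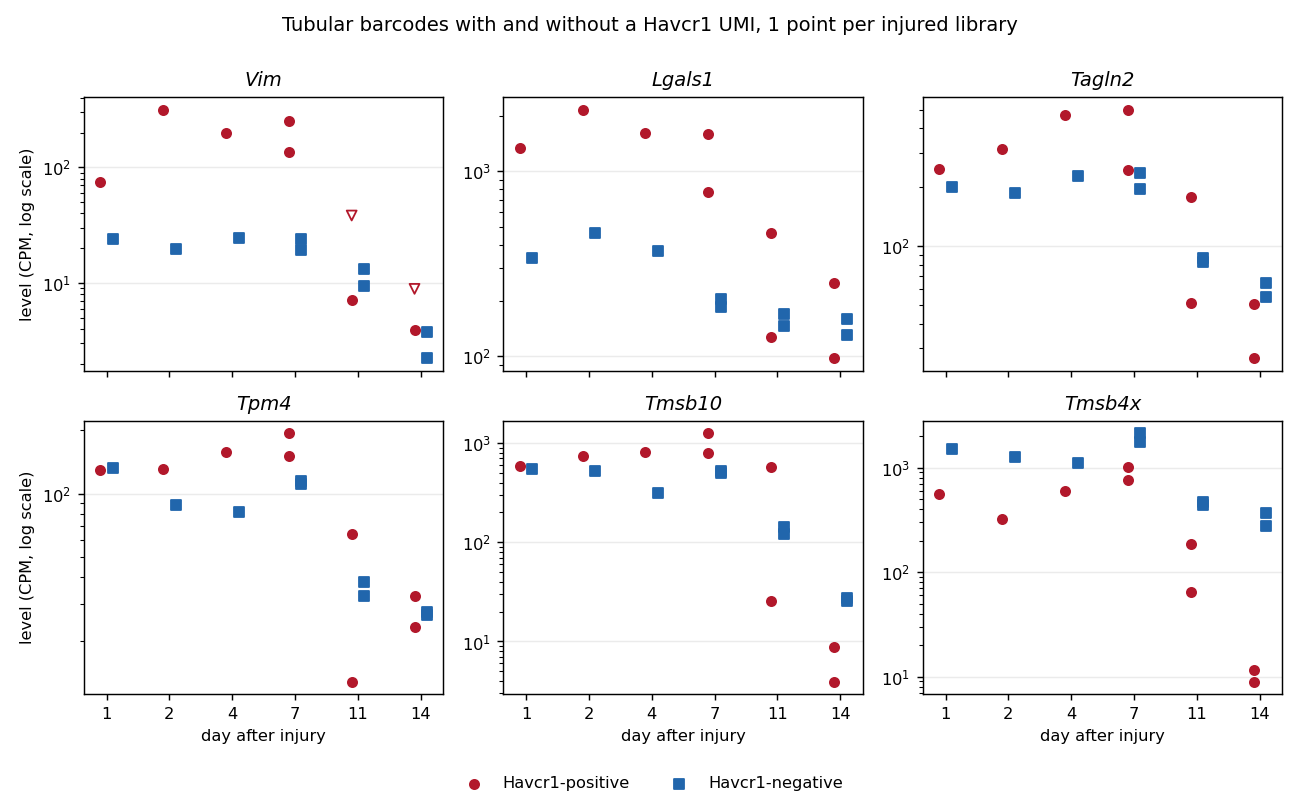
CPM of 6 genes on a log scale in tubular barcodes with (circles) and without (squares) a Havcr1 UMI, by day after injury, with 1 point of each kind per injured library; open triangles are sums with 0 UMIs of Vim, plotted at the level of 3 counts. Vim is higher with a Havcr1 UMI in the 5 libraries of days 1 to 7, for example 253 against 19.4 CPM in day 7 replicate 2, and Tmsb4x is lower in all 9 libraries.

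Shares of tubular barcodes with a UMI were read beside the levels. With each barcode thinned to 500 UMIs, which all kept barcodes reach, 1.26% of control tubular barcodes had a Tmsb10 UMI, 28.3% and 30.7% on day 7 and 0.744% and 0.925% on day 14. Unthinned, these shares were 8.64%, 60.4% and 66.9%, and 3.97% and 4.67%. Thinned shares in immune barcodes were 37.6% in the control and 38.2% and 38.1% on day 7. For Vim the thinned tubular share was 0.126% in the control, 4.03% and 4.26% on day 7 and 0.125% and 0.175% on day 14, against 0.648%, 11.6% and 14.7%, and 0.468% and 0.690% unthinned. Few tubular barcodes thus carried a Vim UMI even on day 7. Lgals1 was in 1.57% of control, 32.8% of day 4 and 5.31% and 6.17% of day 14 tubular barcodes after thinning, and in 10.2%, 64.8%, 21.8% and 25.4% before.

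Other cytoskeletal genes were counted in the same way on day 7 against the control in tubular barcodes. Of the 28 tested genes of actin monomer binding and filament assembly, 13 were higher and 0 lower, with a median log2 change of 0.73, and they include Capg, which caps filaments (4.16 ± 0.48), Arpc1b of the Arp2/3 complex (2.60 ± 0.24) and the severing protein gene Gsn (1.34 ± 0.23). Of 31 contractile and cross-linking genes 18 were higher and 0 lower (median 1.14), among them Anxa2, an annexin that links filaments to membranes (4.65 ± 0.39), Cald1 (2.91 ± 0.36) and Actn1, an actinin (2.23 ± 0.30). Intermediate filament genes were higher in 8 of 10 (median 2.47), with the simple keratins Krt19 (5.92 ± 0.62), Krt18 (3.28 ± 0.30) and Krt8 (3.08 ± 0.29) leading. All these passed edgeR's test, with 34.3% of all genes called and a median of 0.04 over them.

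Beside 34.3% of all genes called on day 7 against the control, 16.5% higher and 17.9% lower, the remaining lists gave these counts. Among tubulins 7 of 13 were higher and 1 lower (median 1.06): Tubb5 (2.97 ± 0.23), Tuba1a (2.17 ± 0.27) and Tubb2b (1.58 ± 0.23) rose, and Tuba4a fell by 1.31. Of 6 tested genes in the list of other galectins, which also holds Lgals3bp, 4 were higher and 0 lower (median 2.46). Lgals3bp, a secreted protein that binds galectins and is not one itself, was at 4.32 ± 0.45, and the galectin Lgals8 at 0.74 ± 0.19. Of 12 brush border genes 1 was higher and 6 were lower (median −0.48). Ezr, the membrane linker ezrin, rose by 1.10 ± 0.21, while the scaffold gene Pdzk1 fell by 2.19, Eps8 by 1.37 and Ush1c by 1.29. Of 9 tested genes in the list of serum response factor and its cofactors and targets, 2 were higher and 1 lower (median 0.61), 33.3% called and so near the share over all genes, with Egr1 at 1.36 ± 0.25 and Fhl1 at −2.25 ± 0.33. On day 11 against day 7, where 21.1% of all genes were lower and 23.0% higher, the counts of lower genes were 7 of 28, 21 of 31, 7 of 10, 6 of 13 and 4 of 6 for the lists in this order up to the galectins, the first near the share over all genes, and 7 of 12 brush border genes were higher.

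The genes whose tubular levels over the 10 libraries were most like the members' mean were Clic1 (Pearson r of 0.991 over the 10 sums), Anxa2 (0.987), Vasp (0.985), D17H6S56E-5 (0.984), Anxa3 (0.983) and Arpc1b (0.982), among 5101 genes whose average log2 CPM reached 5. Clic1, a chloride intracellular channel gene, went from 92.2 CPM in the control to 281 and 324 CPM on day 7 and 95.7 and 87.7 CPM on day 14. Anxa2 went from 28.8 CPM to 629 and 772 CPM and back to 22.1 and 31.8 CPM. Vasp, which promotes filament elongation, went from 14.8 CPM to 53.5 and 58.2 CPM and to 15.5 and 17.8 CPM. These sums share library, depth and segment makeup, and no test is given.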

How the data were processed

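Drop-seq counts of mouse kidney cortex were read from 10 deposited tables, 1 per library, which hold whole-number counts per gene and barcode as the authors made them. They were read as UMI counts, which the labels do not state. The submitters' processing notes name Bowtie2 2.2.7 and mm10 and give no role for either, and the counting tool, its use of strand and any batch are not given in the sources used here.

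The 10 genes, the marker lists and the comparisons were chosen with earlier results of these data known, and the gate thresholds after seeing the marker counts. A barcode needed 500 UMIs, 500 detected genes and no more than 50% mitochondrial UMIs to be kept. In the day 11 libraries 5362 and 5424 barcodes fell short on genes, and 0 did elsewhere. A barcode entered a class with at least 4 UMIs from at least 2 genes of its marker list, where that list held at least 80% (tubular) or 60% (other classes) of its UMIs over the 5 lists, and a tubular barcode entered a segment with at least 2 UMIs and 60% of its segment marker UMIs. No doublet caller was run. The gate drops barcodes with markers of several classes, and doublets within a class remain. Libraries shared 0 to 11 barcode sequences. Counts of replicates differed by more than sampling noise (chi-square per degree of freedom of 15.4, 26.7 and 15.0 for days 7, 11 and 14).

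UMIs were summed per library and class and tested in edgeR 4.0.16 (R 4.3.3) with TMM, filterByExpr and the quasi-likelihood test, called at an adjusted p under 0.05 over all genes. Sums of 2 classes or of Havcr1-positive and Havcr1-negative barcodes were tested with the library as a block. Sums of fewer than 10 barcodes were left out of the fits. DESeq2 1.42.0 was an alternative, and limma 3.58.1 (voom), the fits per segment and the Havcr1 comparisons within proximal barcodes or on days 1, 2, 4 and 7 were added after seeing the data. Where leaving out a replicate left a day with 1 library, that library was assumed to vary like the others. On data simulated for day 7 against the control in tubular barcodes (15013 genes), 30% of genes changed by 1 and 97% of genes changed by 2 on the log2 scale were recovered, and 0.0675% of unchanged genes were called. For the difference of that change between tubular and immune barcodes (15266 genes) edgeR recovered 2% and 17% and called 0% of unchanged genes, and limma-voom recovered 0% and 11% and called 0.564%. Between tubular and stromal barcodes (14465 genes) edgeR recovered 1% and 17% and limma-voom 0% and 5%, and both called 0% of unchanged genes. The simulations used the same dispersion for all genes and, apart from the changed genes, the same profile for all libraries of a class. Other genes were named by rule: from each list, the 3 per direction with the largest called change on day 7 against the control and average log2 CPM reaching 5, and the 6 genes most correlated with the members' mean. Thinned shares are expected shares with 500 UMIs drawn per barcode. Positions are from the GENCODE annotation of GRCm38 and promoters from RefSeq. Alternative filters, gates, scalings and tools, and leaving out each replicate, were also run.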

Additional observations from a re-analysis of the deposited data

Results flagged for a closer look

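The change from control to day 7 differed between tubular and immune barcodes by a test of the difference (edgeR, tubular minus immune, log2 scale) for Tmsb10 (3.87), Vim (2.80), Lgals1 (2.46), Tagln2 (2.40), Tpm4 (1.60), Tmsb4x (1.31) and Lgals3 (−2.77). From day 7 to day 11 the same difference was −2.55 for Tmsb10, −2.52 for Vim, −1.98 for Tmsb4x, −1.90 for Tagln2, −1.85 for Tpm4, −1.22 for Lgals3 and −1.15 for Lgals1. A stricter gate left 12 and 3 immune barcodes in the day 11 libraries, and only the library with 12 was used. The median of all genes was then 5.48, Vim was −2.44, and Lgals1 was 0.68, the opposite sign. Both comparisons share the day 7 libraries.

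Between tubular and stromal barcodes the day 7 change differed for Vim (4.95), Tmsb10 (3.86), Tpm1 (2.79), Tmsb4x (2.44), Tagln2 (2.29), Tpm4 (2.10) and Lgals1 (2.09), and the change from day 7 to day 11 for Vim (−2.32), Tmsb10 (−2.22), Tpm1 (−1.81) and Tmsb4x (−1.73).

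Between proximal and collecting duct barcodes the day 7 change differed for Lgals3 (5.31), Tmsb10 (4.03), Tmsb4x (3.48), Tpm4 (2.04), Tagln2 (1.47), Tpm1 (1.18), Actg1 (1.14) and Actb (0.76), each larger in proximal barcodes. No group had the 4 libraries that a check for single outlying values needs.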

How the results depend on the processing

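Under all alternatives 240 of the counts of called genes stayed within 1.5 times the reported value and 21 did not, and of the single-gene tests 2116 kept their call, 39 gained it, 97 lost it and 31 changed sign. With 1 replicate left out, the count in tubular barcodes ran from 3 to 5 on day 11 against the control (3 without day 11 replicate 2), from 1 to 3 on day 14 against the control and from 1 to 4 on day 14 against day 11. Against stromal barcodes it ran from 3 to 6 on day 7 and from 3 to 10 on day 14, from 1 to 4 for the tubular minus stromal change from day 7 to day 11, and from 3 to 5 for Havcr1 (3 without day 7 replicate 1). The count on day 14 against the control was higher with no filter on low counts and with only the groups compared. That on day 14 against day 11 was higher with only those groups. With only the groups compared, the number called over all genes on day 14 against the control also rose, as given below. A stricter gate left too few immune barcodes in a day 11 library, which was dropped, and could not be fitted for stromal barcodes. The tubular minus stromal change from day 7 to day 11 gave 8 without TMM, 2 with at least 1000 UMIs and 8 with endothelial barcodes added. Within proximal barcodes on days 1, 2, 4 and 7, Havcr1 gave 9. The cause of these shifts was not tested. Fits without a library also have fewer samples, and the part of that was not separated.

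Replicate numbers were not taken to pair the samples. Same-numbered deviations correlated at 0.40 between days 7 and 11, −0.0040 between days 7 and 14 and −0.092 between days 11 and 14. These values do not settle whether the numbers pair them. A fit with the replicate block changed the count of called members on day 14 against the control.

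The sign changed, in tubular barcodes, for Lgals3 on day 11 against the control (−0.10) and Tmsb4x on day 14 against the control (−0.077) with at most 25% mitochondrial UMIs, for Actg1 without TMM (−0.0059 on day 14 against the control and −0.35 on day 11 against day 7), for Tpm4 on day 14 against the control (0.047 with a stricter gate, 0.036 in proximal barcodes) and for Lgals3 on day 14 against day 11 in proximal barcodes (−0.81). With a replicate left out, Tmsb4x on day 14 against the control ran from −0.13 to 0.31, Actb on day 11 against day 7 from −0.27 to 0.16, and on day 14 against day 11 Lgals1 from −0.31 to 0.023. Lgals3, tubular barcodes, day 14 against day 11, ran from −0.0045 to 0.30. The Lgals1 change tubular minus immune from day 7 to day 11 was 0.68 with a stricter gate. The value of Actg1, tubular against stromal barcodes, day 11, was −0.091 without TMM and −0.26 with endothelial barcodes added, and Lgals1 against stromal barcodes on day 14 was 0.26 with them. For Havcr1, Tmsb4x was 0.15 and 0.25, Lgals3 1.68 and 1.63 and Actg1 0.36 and 0.69 within proximal barcodes on all days and on days 1, 2, 4 and 7, and Actg1 was 0.089 on those days in all tubular barcodes. Without a filter on low counts Actb was −0.078 and Tpm1 −0.13, and Tpm1 was −0.012 with at most 25% mitochondrial UMIs and −0.044 without mitochondrial and haemoglobin genes. With a replicate left out, Actb, Havcr1-positive against Havcr1-negative tubular barcodes, ran from −0.023 to 0.16, and Tpm1, Havcr1-positive against Havcr1-negative tubular barcodes, from −0.085 to 0.091. The number called over all genes differed by more than 1.5 times from the reported fit in these cases, given as the lowest or highest. In tubular barcodes it went from 5549 to 8862 without TMM (day 7 against the control), from 2910 to 823 and from 7122 to 4601 without day 11 replicate 2 (day 11 against the control and day 7), from 1275 to 261 without day 14 replicate 2 and 3671 with only the groups compared (day 14 against the control), from 2036 to 576 without day 11 replicate 2 and 3065 with no filter (day 14 against day 11), and from 7510 to 4993 with a stricter gate (day 14 against day 7). Against immune barcodes it went from 7883 to 3684 without day 7 replicate 2 (5217 with DESeq2), from 3842 to 835 with a stricter gate and 6996 in limma-voom, and from 3794 to 2516 without day 14 replicate 2 and 8039 in limma-voom on days 7, 11 and 14, and for the differences of change from 806 to 440 with DESeq2 and 1826 in limma-voom (day 7) and from 888 to 130 with a stricter gate and 2114 in limma-voom (day 11). Against stromal barcodes it went from 1686 to 298 and 4514, from 2109 to 928 and 6236, and from 1782 to 681 and 6916 on days 7, 11 and 14, and for the differences of change from 308 to 136 and 1353 and from 83 to 28 and 1109, the lowest each without 1 replicate. For Havcr1 it went from 3527 to 1012 with a stricter gate. Shares at 1000 UMIs moved in 96 of 100 cases. They draw more UMIs per barcode and leave out barcodes with fewer than 1000, and the part of each was not separated.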
